A study of Homo sapiens with 36 samples.

Results

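Putting HA-tagged GATA2 back into GATA2-low cells and reading chromatin with an anti-GATA2 antibody was represented by 8 CUT&Tag libraries, chosen by their titles, out of 28 libraries with a peak list and 36 described. CUT&Tag tethers a transposase to chromatin through an antibody and sequences the fragments it releases. The cells were HUDEP-2, an immortalized human erythroid progenitor line. In 4 libraries GATA2-low cells, whose genotype is given as GATA2+/-, carried lentiviral HA-GATA2, and in the other 4 they carried the lentiviral empty vector. Both kinds of cells were sorted for GFP after infection and grown with erythropoietin, stem cell factor, doxycycline and dexamethasone. The sources used here do not say how many clones the GATA2-low cells came from or which promoter drives the transgene. For empty vector replicate 1 the genotype field says wild-type and the title GATA2 low; here it was grouped by title. Libraries outside the comparison were used to look sites up. They came from wild-type HUDEP-2 cells with the empty vector and from GATA2-low cells with the empty vector, HA-GATA2 or HA-T354M. HA-T354M is the tagged GATA2 that the titles label T354M.

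GATA2, a zinc finger protein, controls genes in the stem and progenitor cells of blood and binds the sequence GATA in enhancers and promoters. It works with TAL1, LYL1, LMO2 and LDB1 in a multiprotein complex and with the cofactor FOG1, the product of ZFPM1. During red cell maturation GATA1 takes its place at many sites, and in mast cells and basophils GATA2 stays active.

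A stretch of chromatin covered by overlapping peaks of any of the 28 libraries was taken as 1 site, and a site or gene is called gained here when 4 of 4 HA-GATA2 libraries and 0 of 4 empty vector libraries had a peak there. The promoter sequences of 4 genes show what the antibody covered at gene starts in both classes. Of 15811 promoter windows in the RefSeq table (250 bases before to 50 after a start, GRCh38), 173 were gained, which is 1.09%, and 0 were lost (Fisher's exact test with Benjamini-Hochberg adjustment). A peak stood in 8 of 8 libraries at 55 windows, and 1341 windows (8.48%) had a peak in any of the 8. Leaving out any library other than HA-GATA2 replicate 1 brought the number called to 0, and leaving out that library gave 307. MDM4, a p53 inhibitor, and CD82, a membrane tetraspanin, had gained windows. TAL1 and LYL1, the basic helix-loop-helix partners of GATA factors, had windows with a peak in all 8 libraries. In HA-GATA2 cells an antibody to the HA tag gave a peak in 4 of 4 libraries at the TAL1 and LYL1 sites. It gave a peak in 0 of 4 at the MDM4 and CD82 sites. By rank in the HA-GATA2 lists the MDM4 site stood at a mean percentile of 47.6 and the CD82 site at 31.5. Sequences run 5′ to 3′ on the gene's strand, and capitals mark a GATA motif on either strand, where AGATAA, or AGATAG, or else TGATAA, or TGATAG were searched.
MDM4 (chr1:204516156-204516455, plus strand): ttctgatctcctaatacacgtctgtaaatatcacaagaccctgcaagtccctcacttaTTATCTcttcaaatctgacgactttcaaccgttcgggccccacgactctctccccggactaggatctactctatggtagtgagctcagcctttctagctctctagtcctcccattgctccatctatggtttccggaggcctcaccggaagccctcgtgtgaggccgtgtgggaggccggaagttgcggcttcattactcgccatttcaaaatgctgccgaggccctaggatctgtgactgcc
CD82 (chr11:44565413-44565712, plus strand): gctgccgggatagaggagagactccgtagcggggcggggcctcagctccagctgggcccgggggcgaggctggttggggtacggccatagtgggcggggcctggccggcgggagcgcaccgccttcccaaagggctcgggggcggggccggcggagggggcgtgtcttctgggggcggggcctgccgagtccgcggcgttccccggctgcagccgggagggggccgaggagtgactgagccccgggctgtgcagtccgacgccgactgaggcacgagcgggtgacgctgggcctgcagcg
TAL1 (chr1:47232286-47232585, minus strand): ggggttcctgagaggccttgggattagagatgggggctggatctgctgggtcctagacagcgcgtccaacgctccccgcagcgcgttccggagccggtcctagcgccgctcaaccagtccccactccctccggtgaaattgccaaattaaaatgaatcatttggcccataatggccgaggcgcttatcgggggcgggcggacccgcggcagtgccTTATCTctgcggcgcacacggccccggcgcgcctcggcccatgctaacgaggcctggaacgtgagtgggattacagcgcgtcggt
LYL1 (chr19:13102809-13103108, minus strand): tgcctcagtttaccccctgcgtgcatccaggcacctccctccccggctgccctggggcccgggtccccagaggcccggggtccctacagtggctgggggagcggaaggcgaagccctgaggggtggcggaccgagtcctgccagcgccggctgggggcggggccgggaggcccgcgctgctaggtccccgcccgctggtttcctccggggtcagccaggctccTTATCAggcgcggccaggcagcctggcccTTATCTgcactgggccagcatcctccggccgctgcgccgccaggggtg
Relative to the start, the match in the MDM4 window began at -192 and the summit of its site lay at -122. CD82 had no match, and its summit, at -295, lay outside the window. For TAL1 the match began at -35 and the summit lay at -32. LYL1 had 2 matches, at -27 and 2, and its summit lay at 4. A motif was present in 51 of the 173 gained windows (29.5%), in 26 of the 55 windows with a peak in 8 of 8 (47.3%) and in 3101 of all 15811 (19.6%); a match of letters is not by itself a binding site.

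The HA-GATA2 lists held 7064, 11012, 12171 and 11333 peaks, and the empty vector lists 1823, 1914, 2336 and 3648. The groups did not overlap, and the ratio of geometric means was 4.36 (exact two-sided permutation test, p = 0.0286, the smallest that 4 against 4 allows). The labels name no separate cultures, so a p-value speaks of the spread among libraries alone, and that spread may be technical. Read totals are not known, and depth moved with the group. The lowest local background recovered from the lists, with the peak caller's scaling divided out, was 0.427 to 0.434 fragments per window in the HA-GATA2 libraries and 0.153 to 0.213 in the empty vector libraries. The caller had scaled the HA-GATA2 libraries, by 0.648 to 0.686, and none of the empty vector libraries, for reasons the sources used here do not give. Folds of both groups set side by side are therefore descriptions, and the part of the scaling in them was not tested. After the recovered fragments were thinned to a common background, the ratio was 3.68 (exact permutation test, p = 0.0286). Mitochondrial peaks numbered 0 in each HA-GATA2 list and 6 to 10 in the empty vector lists; their part in the result was not tested.

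**Figure D1:**
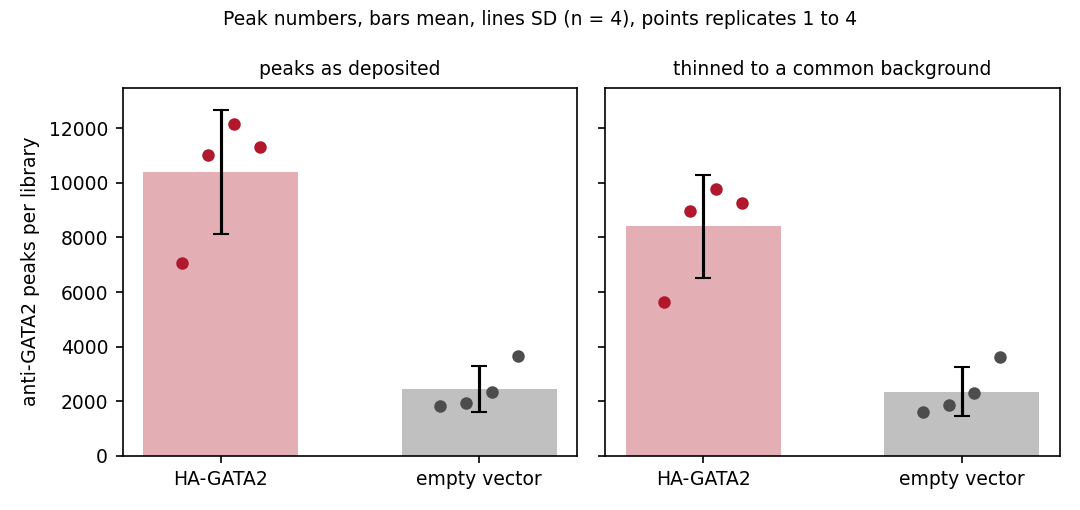
Anti-GATA2 peaks per library (vertical axis) for HA-GATA2 (left) and the empty vector (right), as deposited in the left panel and after thinning to a common background in the right panel; bars are means, lines SD (n = 4) and points libraries. HA-GATA2 lists stay above every empty vector list in both panels.

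Among erythroid genes used to check the cell type, GATA1, KLF1, ALAS2, ANK1, SLC4A1, EPB42 and TFRC had a peak in 8 of 8 libraries. HBA1 and HBA2, the alpha globin genes, had none in any of the 8. Chromatin peaks do not measure expression, so no cell type was named from them. Empty vector replicate 1 shared 55.0% of sites on average with the other empty vector libraries and 23.8% with the wild-type libraries (shared sites over sites of either list). Its list covered 1801 sites and the wild-type lists 6487 to 9029. List length alone keeps the share with wild-type libraries low, so the contrast cannot settle the conflicting label. Of 1579 sites with a peak in 4 wild-type libraries and in none of the other 3 empty vector lists, replicate 1 held 55 (3.48%). For replicate 4 the same share was 31.7% of 2230 sites. The list of replicate 4 was also longer, with 3597 sites, and a longer list can cover more wild-type sites. These shares therefore do not settle which library is closest to the wild-type pattern.

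Sites with a peak under HA-GATA2 but not under the empty vector were many, and the opposite pattern was rare. Of 14107 sites held by at least 1 of the 8 libraries, 3353 were gained, or 23.8%, and 0 were lost, or 0% (Fisher's exact test, adjusted p = 0.0311 over the 3651 sites that exactly 4 libraries held). Adjusted over all 14107 sites the smallest p was 0.12 and no site was called. In all, 12525 sites had a peak in more HA-GATA2 libraries and 181 in more empty vector libraries, and 1401 had equal numbers. Empty vector libraries were ahead by at least 2 libraries at 10 sites, against 9228 sites where HA-GATA2 libraries were. Of the 1306 sites that all 4 empty vector lists held, 1294 (99.1%) were in all 4 HA-GATA2 lists. These 1294 sites, with a peak in 8 of 8, are called kept sites here.

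The call on single sites depended on which libraries were counted. Without empty vector replicate 1, whose labels conflict, the ratio of peak numbers was 4.01. Without empty vector replicate 1, 2 or 3 the adjusted p of the exact test was 0.0518 to 0.0521 and 0 sites were called, although 3395 to 3439 sites still stood at 4 of 4 against 0 of 3 (Fisher's exact test, unadjusted p = 0.0286). Without empty vector replicate 4 the count was 4074, and without HA-GATA2 replicate 1 it was 5536. Thinning left 2218 gained sites, 2200 of them among the 3353, and 0 lost.

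**Figure D2:**
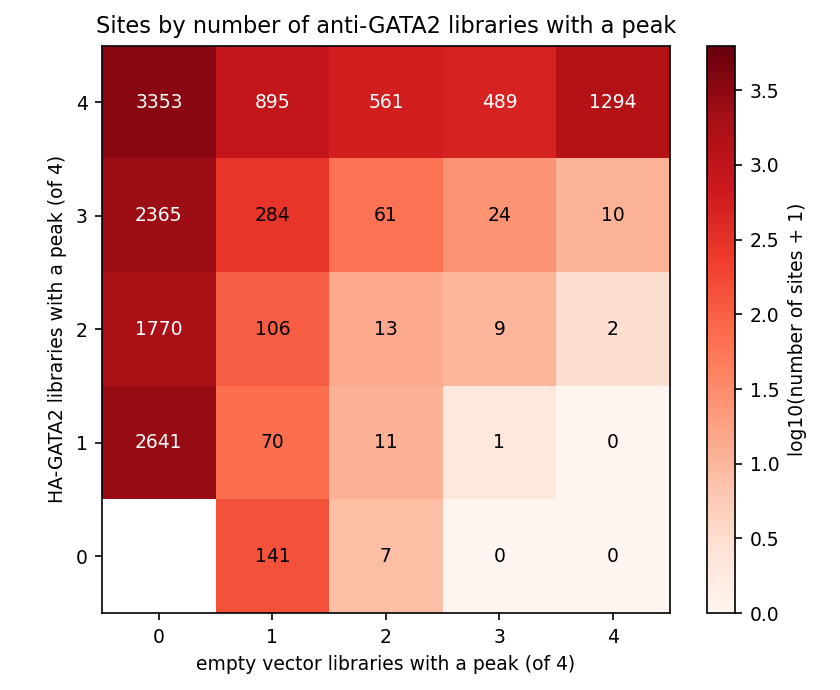
Number of sites by how many of 4 HA-GATA2 libraries (vertical axis) and how many of 4 empty vector libraries (horizontal axis) had an anti-GATA2 peak; colour is log10 of the number plus 1. The 2 largest cells in the top row are 3353 sites at 4 of 4 against 0 of 4 and 1294 at 8 of 8, and the right column below them holds 10, 2, 0 and 0 sites.

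Lists cut to the same length separated the sites differently. With the top 1823 peaks of each library by -log10 q, the caller's measure of how far a peak stands above background, 249 sites were gained and 123 lost. Of the 249, 171 were among the 3353, and 168 were in all 4 anti-HA lists of HA-GATA2 cells. Of the 123, 120 had a peak in all 8 libraries as deposited, 122 had one in 4 wild-type libraries and 32 in 4 anti-HA libraries. Most sites lost in the cut lists thus had a peak in every HA-GATA2 list as deposited, at a rank below the cut in the longer lists. GNA15, which encodes a G protein subunit of blood cells, lay 2545 bp from such a site (chromosome 19, 3133058 to 3133919). The fold of a peak, the authors' enrichment over its local background, was 4.2, 8.1, 9.5 and 9.2 with HA-GATA2 and 11.6, 9.6, 10.5 and 15 with the empty vector.

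Gained sites ranked lower and were narrower than kept sites, given here as a description since the same peaks chose both classes. Their median percentile by -log10 q within the HA-GATA2 lists was 53.5 (quartiles 38.3 and 68.1), against 90.5 (82.3 and 95.9) for kept sites. At or above the 90th percentile were 68 gained and 676 kept sites. Median widths were 543 bp for gained and 929.5 bp for kept sites. Within 1000 bp of a gene end lay 7.90% of gained, 9.35% of kept and 15.9% of the other sites. Inside a gene body lay 55.3%, 53.7% and 54.7%. Within 10 kb of a kept site lay 6.80% of gained sites and 7.03% of the other sites that were not kept. These shares were close, and their difference was not tested. On chromosome 19 lay 1.67% of gained and 5.02% of kept sites.

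The peak lists were also compared in 6 features of shape and position. A median peak was 369 ± 9.2 bp wide in HA-GATA2 libraries and 332 ± 7.1 bp in empty vector libraries (SD, n = 4 each). Within 1000 bp of a gene end lay 11.6 ± 1.2% of peaks with HA-GATA2 and 11.6 ± 1.5% with the empty vector, against 23.6 ± 2.1% in wild-type libraries. None of the 6 features passed the exact permutation test after adjustment (smallest adjusted p = 0.0571). With lists of equal length the share near gene ends was 4.16 points lower with HA-GATA2 (exact permutation test, adjusted p = 0.0343). Chromosome 19 held 3.09 ± 0.13% of HA-GATA2 peaks and 5.21 ± 0.28% of empty vector peaks, with no overlap between the groups; its share in wild-type libraries was 5.98 ± 0.41%. This comparison was chosen after the values were seen (exact permutation test, adjusted p = 0.0438 over 23 chromosomes). At that adjusted p, 15 chromosomes differed, 9 with a higher share (39.1%) and 6 with a lower one (26.1%). After thinning, with lists of equal length or with any library left out, 0 chromosomes passed. The chromosome 19 shares after thinning were 2.99% and 5.07% (exact permutation test, adjusted p = 0.0505), and with lists of equal length 3.28% and 5.01% (adjusted p = 0.073). Leaving out single libraries gave adjusted p of 0.0773 to 0.0876 for chromosome 19, where a p of 0.0571 is the smallest that 3 against 4 allows before adjustment.

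An anti-HA antibody, which sees the tag and not GATA2 itself, gave a second reading of the gained sites. Peaks in the anti-HA libraries of HA-GATA2 cells covered 35.8%, 47.0%, 59.1% and 13.6% of the 3353 sites, and those of the empty vector cells covered 0% in each of 4. Over all 14107 sites the shares with HA-GATA2 were 27.7%, 33.4%, 40.3% and 13.4% (mean 28.7 ± 11.4%, SD, n = 4), so replicate 4 covered gained sites and all sites nearly alike. Gained sites were in every HA-GATA2 anti-GATA2 list by definition, and many of the 14107 sites were in fewer. Shares of gained and of all sites, here and below, are therefore not like for like. Equally reproducible sites were not compared. The lowest share came from replicate 4, whose list was also the shortest with 1912 peaks, against 4073 to 6065 in the others. The empty vector anti-HA lists held only 1 to 6 peaks, too few to cover any class of sites. An exact permutation test against them gave p = 0.0286. With lists so short it cannot tell gained sites from any others, and nothing is concluded from it. Of kept sites, 86.5 ± 13% had an anti-HA peak with HA-GATA2. At 378 gained sites (11.3%) all 4 anti-HA libraries had a peak, and at 1127 (33.6%) none did.

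Wild-type cells with the empty vector shared part of the gained sites. Their 4 anti-GATA2 libraries covered 35.5%, 35.1%, 50.9% and 50.5% of the gained sites, while of all 14107 sites in the comparison they covered 45.7 ± 5.8% (SD, n = 4). Of kept sites they covered 99.7 ± 0.15%. A peak stood in 4 of 4 wild-type libraries at 845 gained sites (25.2%), in 1 to 3 at 1196 (35.7%) and in none at 1312 (39.1%). In that order the median percentile in the HA-GATA2 lists was 60.6, 56.2 and 47.6. The share within 1000 bp of a gene end was 17.8%, 6.52% and 2.82%, and the share with at least 3 anti-HA peaks was 45.0%, 30.8% and 21.3%. All of these values were lowest for the gained sites without a wild-type peak; they are descriptions with no test. Wild-type lists were also shorter than most HA-GATA2 lists, with 6555 to 9121 peaks. In GATA2-low cells with HA-T354M, anti-GATA2 libraries covered 34.9 ± 15.5% of gained sites and 32.4 ± 9.8% of all 14107 sites (SD, n = 4). Anti-HA libraries of the same cells covered 1.32 ± 0.77% of gained, 4.04 ± 1.1% of all and 29.8 ± 6.5% of kept sites (SD, n = 4). How much of the anti-GATA2 share came from the tagged protein was not tested.

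**Figure D3:**
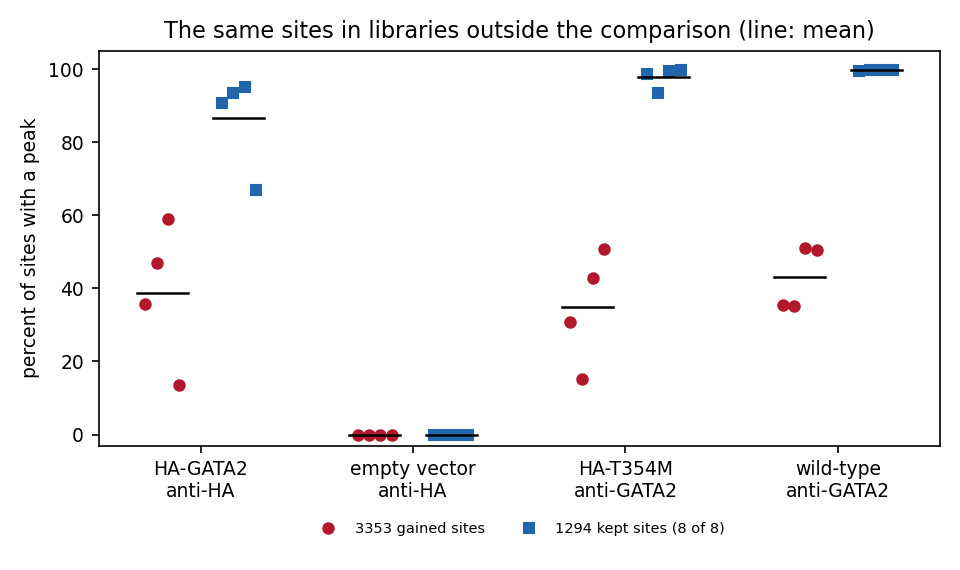
Percent of the 3353 gained sites (circles) and of the 1294 kept sites (squares) with a peak in each library of 4 groups outside the comparison (vertical axis); lines are means of 4 libraries. The anti-HA libraries of HA-GATA2 cells span 13.6% to 59.1% of gained sites, those of empty vector cells are at 0%, and wild-type libraries span 35.1% to 50.9%. HA-T354M anti-GATA2 libraries span 15.1% to 50.8% of gained sites.

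The strongest gained sites without any wild-type peak lay 163439 bp from UBE2V2, 193980 bp from CIBAR1 and 236931 bp from TBC1D1, and inside DNAAF10, KLK15 and MECOM. The site inside KLK15, a kallikrein protease gene (chromosome 19, 50824966 to 50825779), had folds of 41.1, 47.3, 49.8 and 43.7 with HA-GATA2. The site inside DNAAF10 (chromosome 2, 68133710 to 68134776) had folds of 37.4, 44.1, 57 and 47.9. All 4 anti-HA libraries had a peak at DNAAF10, and 2 of 4 had one at KLK15. The empty vector was ahead by at least 2 libraries at 10 sites. Among these, RRAGC and SLC12A7 had a nearby site in 2 HA-GATA2 and 4 empty vector libraries and MED9 in 1 and 3. ZDHHC19, CLEC16A, TNS4, TCEA2, NCAM2, ETS2 and OSM had one in 0 and 2. At CLEC16A the empty vector folds were 14.6 and 6.9, and at TNS4 14.3 and 10.2. By -log10 q these peaks stood below the middle of the empty vector lists, at mean percentiles of 30.3 and 41.9. All 4 wild-type libraries had a peak at CLEC16A and at TNS4, with folds of 25.4 to 28.6 and of 22.6 to 35.4.

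Gained sites were spread thinly, at 1.11 per Mb of the genome, and a few genes held several. ZFPM2, which encodes the GATA cofactor FOG2, had 10 in its body or within 10 kb, with 13, 17, 17 and 20 peaks in the HA-GATA2 libraries and 1, 1, 1 and 4 in the empty vector libraries. THRB, a thyroid hormone receptor gene, had 6, with 7 to 9 peaks per HA-GATA2 library and 0 or 1 per empty vector library. AGPAT5, an acyltransferase gene, also had 6, or 82.3 per Mb of its body with 10 kb on either side, the densest of the 10 genes with the most gained sites. CACUL1, CHST11, DLGAP1, GMDS, MTSS1 and NSMCE2 had 5 each and ARL15 had 4. CACUL1 and ARL15 had no empty vector peak at all. ZFPM2, AGPAT5, MTSS1 and NSMCE2 all lie on chromosome 8.

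At the level of genes, a summit in the body or within 10 kb was looked for at 19970 protein-coding genes; neighbouring genes can share a summit. With HA-GATA2 1552 genes were gained, or 7.77%, and 0 were lost, or 0% (Fisher's exact test, adjusted p = 0.032 over 1737 genes with a peak in exactly 4 libraries). Adjusted over all 6640 genes with a peak the smallest p was 0.122 and 0 genes were called, while 1552 had an unadjusted p of 0.0286. A peak in 8 of 8 libraries stood at 993 genes (4.97%) and in 0 of 8 at 13330 (66.8%). Leaving out 1 library gave 1566 to 2340 gained genes, the most without HA-GATA2 replicate 1. Long genes offer more room: the gained share was 3.59% in the shortest of 4 equal length classes and 13.3% in the longest. Median lengths were 51.5 kb for gained, 54.6 kb for kept and 24.2 kb for all genes. Of the gained genes, 554 (35.7%) had a peak in 4 wild-type libraries and 388 (25%) in none.

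The targeted gene comes first. GATA2 itself had a peak in 8 of 8 libraries, but its single sites differed from each other. Within the gene body, the site from 128485735 to 128487032 on chromosome 3 was gained, with folds of 19.3, 20.6, 23 and 11.2 under HA-GATA2 and no empty vector peak. At this site 3 of 4 anti-HA libraries of HA-GATA2 cells, 4 of 4 HA-T354M anti-GATA2 libraries and 1 of 4 wild-type libraries (fold 5.5) had a peak. The vector carries the GATA2 coding sequence; exon positions were not used here, and the part of vector fragments in this site was not tested. A neighbouring site, from 128482702 to 128484003, had folds of 14.2, 11.6, 11.5 and 11.3 with HA-GATA2, a peak in 2 of 4 empty vector libraries (9.9 and 14.1) and folds of 21 to 26.6 in wild-type libraries. Upstream of the gene, 2441 bp away, the site from 128495069 to 128496370 was kept, with folds of 17.7, 24.9, 21.5 and 25.6 against 10.2, 9.1, 12.2 and 16.1 with the empty vector.

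Among 20 core partners and targets of GATA2, 11 had a peak in 8 of 8 libraries, 4 were gained (20%) and 3 had none. The gained genes were MECOM, LDB1, KIT and SPI1. MECOM encodes EVI1, a zinc finger factor of blood stem cells. Its site from 169510315 to 169510933 on chromosome 3 had folds of 36.3, 47.3, 48.7 and 50.8 with HA-GATA2 and no peak in the empty vector or wild-type libraries. Its other gained site (169453237 to 169453850) had 14.5, 16.7, 17.2 and 14.1, and 3 of 4 wild-type libraries had a peak there. KIT, the stem cell factor receptor, had a site 10164 bp after its start (chromosome 4, 54667899 to 54668382) with folds of 8, 12.2, 16.2 and 16.9 and a peak in 3 of 4 wild-type libraries. LDB1, the adaptor of the TAL1 complex, stood at 9.1, 7, 9.2 and 10.3 within its body and in 4 of 4 wild-type libraries. SPI1, which encodes the myeloid factor PU.1, had folds of 5.4 to 8.4, a mean percentile of 33.5 within the lists and a peak in 1 of 4 wild-type libraries at that site. MECOM ranked high in the HA-GATA2 lists, at a mean percentile of 90.1, and KIT and LDB1 in the middle, at 40.3 and 48.3.

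Genes that already had a peak in every empty vector library also acquired sites. The TAL1 site 7057 bp upstream of the start (chromosome 1, 47238939 to 47239938) was gained, with folds of 35.5, 33.2, 36.9 and 37.9 under HA-GATA2 and 13.7 to 17.9 in wild-type libraries. Beside it, the site over the TAL1 start was kept, at 22.9, 29.9, 32.7 and 26.8 with HA-GATA2 and 10.9, 13.9, 15.9 and 22.8 with the empty vector. GATA1, the erythroid GATA factor, gained a site 1359 bp after its start (chromosome X, 48787708 to 48788425) with folds of 15.4, 20.7, 26.3 and 18.2. It had a peak in 4 of 4 anti-HA and in 0 of 4 wild-type libraries. LMO2, the bridging protein of the complex, gained a site inside its body (chromosome 11, 33881703 to 33882389; folds of 15.3, 20.8, 25.1 and 15.2). Its kept site 2418 bp outside had 37, 49.4, 57.9 and 59.4 with HA-GATA2 and 9.4, 8.1, 13.8 and 18.2 with the empty vector. RUNX1, MYB and GFI1B, transcription factors of blood progenitors, each had 1 gained site, and ZFPM1 had 3. LYL1 and HDC, which makes histamine, had none. FLI1, GFI1 and HHEX had no peak in their windows in any of the 8 libraries. Beyond the GFI1 window, 26300 bp from the gene, lay a gained site (chromosome 1, 92446260 to 92447292). Its folds under HA-GATA2 were 44.1, 82, 60.9 and 82.9. All 4 wild-type lists and all 4 anti-HA lists of HA-GATA2 cells held this site.

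**Figure D4:**
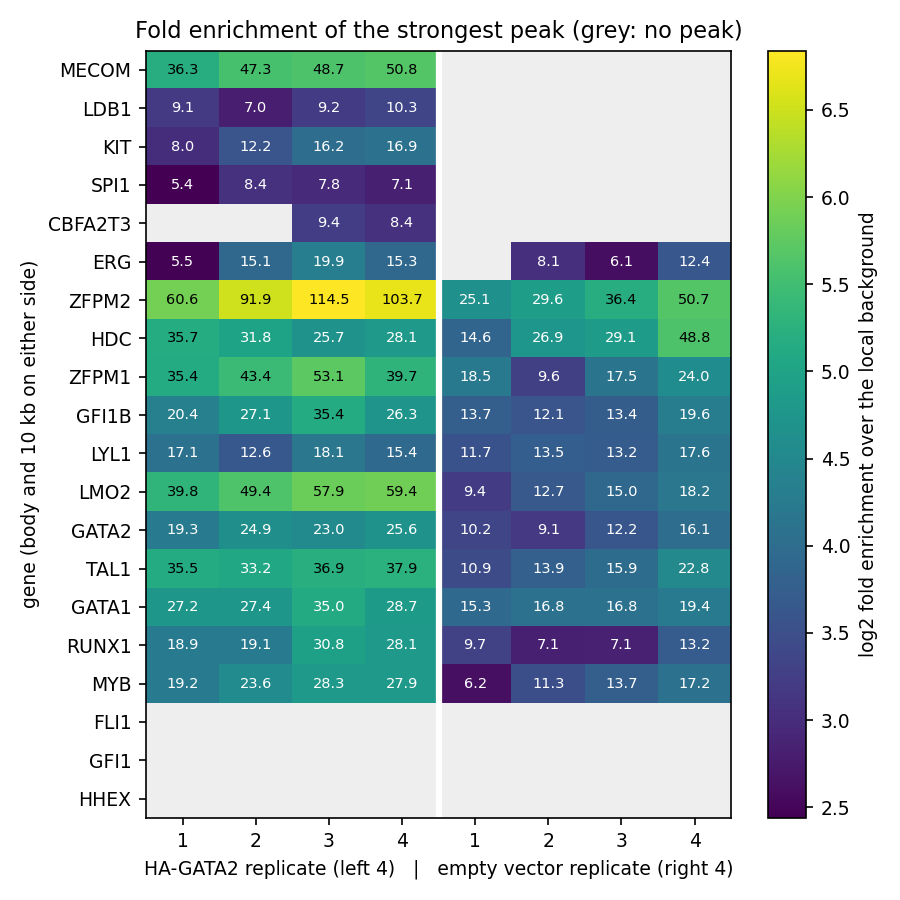
Fold enrichment of the strongest peak in the body or within 10 kb of 20 core partners and targets of GATA2 (rows) in 4 HA-GATA2 libraries (left) and 4 empty vector libraries (right); colour is log2 of the fold and grey is no peak. MECOM, LDB1, KIT and SPI1 have values in the left block alone, and 11 genes have values in all 8 libraries.

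Across 18 lists with 498 measured genes, 65 genes were gained (13.1%), 62 had a peak in 8 of 8 (12.4%) and 241 had none (48.4%). The lists were chosen with earlier results in view, and the gained share was higher among long genes here too (19.3% in the longest class and 5.34% in the shortest). With each library left out in turn the 65 stayed called. Dropping a library cannot undo a peak in every HA-GATA2 library and in no empty vector library. Only the adjusted p could have removed a call, so these runs do not test the pattern of single genes. After thinning 52 of the 65 were called, and 6 were with lists of equal length. More HA-GATA2 than empty vector libraries had a peak at 191 listed genes, and fewer at 3. Of the 65, 26 had a peak in 4 of 4 wild-type libraries and 20 in none.

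**Figure D5:**
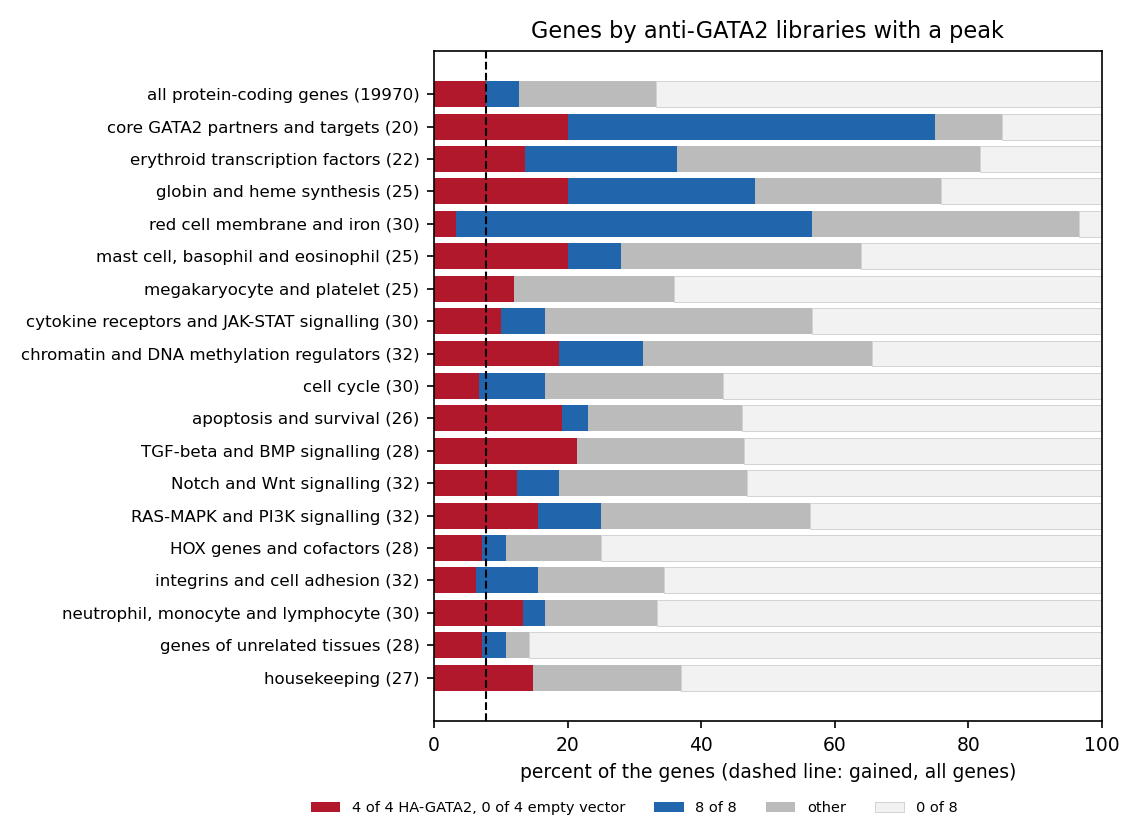
Percent of the genes of each list (horizontal axis; number of genes in brackets) that were gained, had a peak in 8 of 8 libraries, had another pattern or had none. The top bar is all protein-coding genes, and the dashed line is their gained share of 7.77%; red cell membrane and iron genes were mostly at 8 of 8, with 1 of 30 gained (5 without empty vector replicate 4).

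Red cell membrane and iron genes were the list most often occupied in every library after the core genes. Of 30 red cell membrane and iron genes, 16 had a peak in 8 of 8 libraries and 1 was gained, XK, which carries the Kx blood group antigen. Its stronger gained site had folds of 14.6, 19.5, 20.8 and 17.6 and its other gained site 8.2, 18.5, 18.2 and 16.6. Neither had an anti-HA peak with HA-GATA2. The number of gained genes in this list was 5 without empty vector replicate 4, 2 without HA-GATA2 replicate 1 and 3 with a -log10 q of at least 15. ADD2 and CD36 stood at 4 of 4 against 1 of 4, with the only empty vector library with a peak being replicate 4 both times. Of 22 erythroid transcription factors 3 were gained (13.6%) and 5 were at 8 of 8. IKZF1, the lymphoid and erythroid factor Ikaros, gained 2 sites, the stronger with folds of 26.3, 39.5, 46.5 and 39.9 (chromosome 7, 50332965 to 50333805). MAFG, the small Maf partner of NFE2, had 11.9, 14.1, 15 and 15 at a site inside the neighbouring gene PYCR1. TCF4, an E protein, gained 2 sites, with folds of 13.1 to 23 and of 15.2 to 23.3. Of 25 globin and heme genes 5 were gained (20%) and 7 were at 8 of 8. The gamma globin genes HBG1 and HBG2, near-identical copies side by side, counted as gained through 1 shared site, 3465 bp from HBG1 (chromosome 11, 5244526 to 5244946), with folds of 10.8, 17.7, 27.4 and 21.2 and no wild-type peak. ALAD and UROD are enzymes of heme synthesis. The gained site in ALAD had folds of 14.2, 17, 20.3 and 14.3 and a peak in 2 of 4 wild-type libraries, and that at UROD had 9, 10.6, 9.9 and 11.4 and a peak in 4 of 4. The UROD site lay at -832 from the UROD start and was nearer to HECTD3, at 98 bp.

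Markers of other blood cells were mixed. Of 25 mast cell, basophil and eosinophil genes 5 were gained (20%), and 8 without HA-GATA2 replicate 1. HA-GATA2 libraries had a peak at 8, 11, 16 and 11 of these genes and empty vector libraries at 3, 2, 2 and 2. IL1RL1, the interleukin 33 receptor, had folds of 37.6, 41.9, 48.9 and 50, and wild-type libraries had a peak there in 4 of 4. CPA3, the mast cell carboxypeptidase, stood at 26.2, 34.2, 36 and 36.3, CCR3, the eotaxin receptor, at 15.6, 25.6, 31.3 and 31.9, and the gained site near PRG2, the eosinophil major basic protein, at 14.3, 21.1, 24.7 and 26.1. These 3 sites had no wild-type peak. Among 25 megakaryocyte and platelet genes 3 were gained, NFE2L3 and RAB27B among them, and 5 without HA-GATA2 replicate 1. Of 30 neutrophil, monocyte and lymphocyte genes 4 were gained (13.3%): FCGR3A with folds of 5.59 to 7.61, CD4 with 9.998 to 11.9, and EBF1 and RAG1 with 10.3 to 19.2 and 15 to 20.8. Genes of unrelated tissues gave 2 of 28 (7.14%), SYP and GAD2, and housekeeping genes 4 of 27 (14.8%), YWHAZ, RPS3, PSMB4 and REEP5. In the HA-GATA2 lists the YWHAZ site stood at a mean percentile of 5.18, and those of RPS3, PSMB4 and REEP5 at 38.4 to 61.1. The housekeeping share was above the shares of several blood lists, so a share of this size was not particular to blood genes.

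Signalling and chromatin genes made up much of the rest. TGF-beta and BMP signalling gave 6 of 28 gained genes (21.4%), with a median gene length of 81.3 kb. SMAD2, a receptor-activated signal transducer, had folds of 33.7, 48, 49.4 and 32 and a peak in 4 of 4 wild-type libraries. SMURF2, a ubiquitin ligase that limits the pathway, had 16.7, 30.6, 27.1 and 24.8 and none, TGFBR1, a type I receptor, 17.2, 20, 20.3 and 20.2 and 3 of 4, and SMAD5 12.5, 22.9, 23.8 and 23.6 and 1 of 4. Chromatin and DNA methylation regulators gave 6 of 32 (18.8%). CHD4, the remodelling ATPase of NuRD, had folds of 25.2, 34.2, 37.3 and 29, and RCOR1, the corepressor CoREST, gained 3 sites. SETD2 and KMT2D, histone methyltransferases, stood at 21.8 to 36.1 and 9.9 to 12.6. The KMT2D site lay outside the gene body, inside the neighbouring gene PRKAG1. Apoptosis and survival genes gave 5 of 26 (19.2%). BCL2L1, which protects late erythroblasts, gained 2 sites, the stronger with folds of 18, 28.6, 36.3 and 26.8 and no wild-type peak, BCL2L11, a death-promoting member of the same family, 20, 24.2, 24.4 and 33.4, and CFLAR gained 3 sites.

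RAS-MAPK and PI3K signalling gave 5 of 32 gained genes (15.6%), among them SPRED1, PIK3CB and PIK3R1 with folds of 7.28 to 22.9. Notch and Wnt signalling gave 4 of 32 (12.5%; 7 without HA-GATA2 replicate 1), and CTNNB1, which encodes beta-catenin, gained 2 sites with no wild-type peak (the stronger at 22, 35.2, 40.3 and 30.4). Cytokine receptors and JAK-STAT signalling gave 3 of 30 (10%; 5 without empty vector replicate 4), among them FLT3, a receptor of early progenitors, with folds of 24.1, 30.1, 38.2 and 23.8, and the feedback inhibitor SOCS2. The gained SOCS2 site stood low in the HA-GATA2 lists, at a mean percentile of 3.85, and had no anti-HA peak. EPOR, the erythropoietin receptor, had a peak in 2 of 4 HA-GATA2, 1 of 4 empty vector and 4 of 4 wild-type libraries. HOX genes and cofactors gave 2 of 28 (7.14%), MEIS2 and PBX3, and 4 without empty vector replicate 4. Cell cycle genes gave 2 of 30 (6.67%; 6 without HA-GATA2 replicate 1), the inhibitors CDKN2A and CDKN2B. The gained site inside CDKN2A stood low in the HA-GATA2 lists, at a mean percentile of 5.21, and had no anti-HA peak. It also lay within 10 kb of CDKN2B, whose other gained site stood at 44.8. Integrins and cell adhesion gave 2 of 32 (6.25%). Of these, ITGB1, the beta-1 integrin subunit of progenitor adhesion, held 4 gained sites, the strongest with folds of 35.9, 52.9, 51.7 and 51.4 (chromosome 10, 32923498 to 32924536). The gained site of ITGA4, its alpha-4 partner, had 9.2, 10.7, 7.6 and 10.8.

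The order of the kept sites differed between the groups. Among the 1294 sites each library's peaks were ranked by -log10 q and given a percentile. Rank correlations between libraries were 0.924 to 0.958 within HA-GATA2, 0.751 to 0.823 within the empty vector and 0.612 to 0.701 between the groups; they run across sites of the same libraries and are a description. At 218 sites (16.8%) every HA-GATA2 library ranked the site higher than any empty vector library, and at 232 (17.9%) lower. A site inside PIGN, a gene of membrane anchor synthesis (chromosome 18, 62066052 to 62066909), stood at percentiles 88.3, 93, 90 and 93 with HA-GATA2 and 38.6, 7.57, 11 and 2.24 with the empty vector. A site inside DNAJB2, a chaperone gene (chromosome 2, 219279063 to 219280244), stood at 30.9, 31, 31.8 and 28 and at 71.2, 90.8, 72.4 and 90.7. All 4 anti-HA libraries had a peak at 84.9% of the sites that ranked higher, 57.8% of those that ranked lower and 66.8% of all kept sites. On chromosome 19 lay 3.21%, 8.19% and 5.02% of these sites.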

How the data were processed

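Peak lists of 8 anti-GATA2 CUT&Tag libraries were compared, with the other 20 lists used to merge sites and to look them up. Per the submitters' processing notes, reads were handled with Bowtie2 2.2.5, cutadapt 3.3, FastQC and deepTools 3.5.3, and MACS2 2.2.7.1 was the peak caller, on hg38; settings were not given in the sources used here. The authors deposited peaks per library, not pooled. Each deposited peak has a score (10 times the -log10 q), a fold enrichment (a linear ratio over the local background) and -log10 values of p and q. Lists begin at a -log10 q of about 6.00. These values are the authors', and served to describe, rank and filter peaks.

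Peaks on chromosomes 1 to 22 and X were kept (120509 of 120964) and merged where they overlapped by 1 bp, giving 17277 sites. Gene positions and promoters came from RefSeq tables of GRCh38. Python 3.11.15, numpy 2.4.6, scipy 1.17.1, pandas 2.3.3 and matplotlib 3.10.9 were used. Sites, genes and promoter windows were tested by Fisher's exact test on the numbers of libraries that had a peak, with Benjamini-Hochberg adjustment over the features with a peak in exactly 4 of 8. Library values were tested by exact two-sided permutation. The fold and -log10 p of each peak gave back its fragments within 0.03% for 99.9% to 100% of peaks and these were thinned to the shallowest library; this and the calls were tested on simulated data. Alternatives were a -log10 q of at least 15, lists of equal length, thinning, other adjustments, merges and gene windows, pairing, and each library left out. Named genes were the 20 core genes, up to 4 per list with the largest difference in libraries (at least 3) and the strongest peaks, the 10 genes with the most gained sites and the 10 strongest gained sites; other sites and genes were picked with their values in view. A few genes that this choice includes are not reported here. The promoter table held no windows from chromosome 8. The members and lists were chosen with earlier results of these data known.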

Additional observations from a re-analysis of the deposited data

Results flagged for a closer look

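In 52 groups of 4 libraries (peak numbers, features and genes with a peak per list), 11 had a library far from the other 3 by Dixon's test, where chance flags about 5% of groups of continuous values. In each of the 11 the other 3 libraries had the same count, so any gap is flagged and that rate does not hold for these counts. Among HA-GATA2 libraries, replicate 1, the shortest list, had the fewest genes with a peak in 3 lists: 12 cytokine and JAK-STAT genes against 14 in each of the others, 7 apoptosis and survival genes against 10, and 7 neutrophil, monocyte and lymphocyte genes against 9. Replicate 3 had 7 HOX genes and cofactors against 6. Among empty vector libraries, replicate 4, the longest list, had the most in 5 lists: 4 apoptosis and survival genes against 1, 9 RAS-MAPK and PI3K genes against 5, 2 neutrophil, monocyte and lymphocyte genes against 1, 2 genes of unrelated tissues against 1, and 1 housekeeping gene against 0. Replicate 1, whose genotype label conflicts with its title, had 11 core GATA2 genes against 12 and 3 genes of the mast cell, basophil and eosinophil list against 2. The differences are of 1 to 4 genes.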

How the results depend on the processing

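The ratio of peak numbers kept its direction in every setting run, from 3.68 after thinning to 5.11 with a -log10 q of at least 15; leaving out 1 library gave 4.01 to 5.06, with p = 0.0571, the smallest that exact permutation of 3 against 4 allows. With a replicate block the ratio was 4.36 and the exact sign-flip p was 0.125, the smallest that 4 pairs allow. Libraries that share a number deviated together with correlations of -0.106 to 0.0123, and 0 of 4 correlated best with their own number, so the numbers do not pair them.

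Gained sites numbered 3353 as deposited, 2991 with a -log10 q of at least 15 (2398 among the 3353), 2218 after thinning, 249 with lists of equal length, 0 when adjusted over every site, 6613 where the groups differed by at least 3 libraries, 3328 with peaks trimmed around the summit and 0 to 5536 with 1 library left out. Lost sites numbered 123 with lists of equal length and 0 in the other settings with a test. Gained genes numbered 126 with lists of equal length, against 100 lost; 0 when adjusted over every gene; 3006 for a difference of at least 3 libraries; 302 with summits within 1000 bp of a gene end; and 1566 to 2340 with 1 library left out. Gained promoter windows, an analysis added after the data were seen, numbered 55 after thinning, 7 with lists of equal length (12 lost) and 0 to 307 with 1 library left out. The wild-type share of gained sites was 82.8% with lists of equal length and 35.4% to 51.2% with 1 library left out; the mean anti-HA share with HA-GATA2 was 38.9% as deposited, 32.5% with a -log10 q of at least 15, 46.7% after thinning, 88.7% with lists of equal length and 27.8% to 41.0% over the 5 libraries whose removal left any gained site (0 sites were gained without empty vector replicate 1, 2 or 3). Per gene list, the -log10 q of at least 15 left 2 core genes, 2 neutrophil, monocyte and lymphocyte genes and 1 cell cycle gene, and gave 5 HOX genes; thinning left 3 RAS-MAPK and PI3K, 2 Notch and Wnt, 2 neutrophil, monocyte and lymphocyte genes and 1 cell cycle gene, and lists of equal length left 0 or 1 in each list.

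Differences of HA-GATA2 minus empty vector in peak features turned round in some settings. The share within 1000 bp of a gene end differed by 0.00817 points as deposited, -0.114 with a -log10 q of at least 15, -1.98 after thinning, -4.16 with lists of equal length and -0.459 to 0.704 with 1 library left out. The distance to a gene end differed by -324 bp as deposited, 621 after thinning, 3830 with lists of equal length and -921 to 40.2 with 1 library left out. With lists of equal length the share over 50 kb from a gene differed by 2.32 points, the share on chromosome X by -0.480 points and the median width by 332.5 bp (exact permutation test, adjusted p = 0.0343 each). For the thinned, cut and left-out lists, fewer peaks or libraries enter by construction; beyond that the cause was not tested. A peak list holds only what passed the caller, so an absent peak is one not detectable at that library's depth.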
